A study of Mus musculus with 16 samples.

Results

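Stem-like and naive CD8+ T cells are held in their state by a small circuit of transcription factors, and 10 of its genes were followed here: Tcf7, Lef1, Bach2, Foxo1, Foxp1, Myb, Bcl6, Satb1, Zeb1 and Ets1. They were found by symbol in a table of 54532 mouse genes, in which each symbol matched 1 row. Their expression came from RNA-seq of 16 CD8+ T cell samples that form 4 groups of 4 replicates. The cells came from spleens of C57BL/6J mice. They were isolated in the naive state and differentiated in culture over 4 days into cells that carry TCF1, the protein encoded by Tcf7, with repeated activation on the way. They are therefore an in vitro model of antigen-experienced TCF1+ cells, not cells taken from a tumour. The age and sex of the mice and the number of mice per replicate are not stated in the labels, so p-values measure the spread between these samples, which may be technical.

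The groups differed in 2 treatments. The cells were kept for 1 h with or without prostaglandin E2 (PGE2, a lipid mediator that raises cAMP in T cells through the receptors EP2 and EP4) at 100 ng ml-1. They were then given IL-2 at 85 U ml-1 for 4 h, either alone or together with 1 bead per cell coated with antibodies against CD3 and CD28, which imitate antigen and costimulation. Cells without beads are called unstimulated below, although they too had received IL-2, and cells with beads stimulated. Cells without PGE2 are called untreated.

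TCF1 and its closest relative LEF1 are HMG-box proteins that bind the same DNA motif and, with or without beta-catenin, keep T cells able to self-renew. FOXO1 turns on genes for residence in lymphoid organs and is driven out of the nucleus by AKT when the T cell receptor signals. FOXP1, BACH2, BCL6 and ZEB1 act mainly as repressors. FOXP1 keeps naive T cells quiescent, BACH2 competes with AP-1 factors at effector genes, BCL6 opposes Blimp-1 (encoded by Prdm1), and ZEB1 binds E-boxes. MYB is needed for stem-like T cells, SATB1 organises chromatin, and ETS1 is a factor of T cell development and homeostasis. Antigen receptor signals are known to lower several of these genes as cells turn into effectors.

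The upstream sequences of 3 of these genes are printed as examples of a gene that fell with stimulation (Lef1), a gene that rose with PGE2 in both states (Bach2) and a gene that did either, depending on the comparison (Bcl6). Each is the 250 bases before a RefSeq transcription start in GRCm38.p6, and none shares a base with an exon of its own gene in the GENCODE annotation. Capitals mark matches, on either strand, to 6 motifs. These were the cAMP response element TGACGTCA and its part TGACG, which the whole element contains, a FOXO motif TGTTTAC, a TCF/LEF motif CTTTGNT, a BCL6/STAT motif TTCNNNGAA and a ZEB motif CACCTG.
Lef1, chr3:131110047-131110296, plus strand: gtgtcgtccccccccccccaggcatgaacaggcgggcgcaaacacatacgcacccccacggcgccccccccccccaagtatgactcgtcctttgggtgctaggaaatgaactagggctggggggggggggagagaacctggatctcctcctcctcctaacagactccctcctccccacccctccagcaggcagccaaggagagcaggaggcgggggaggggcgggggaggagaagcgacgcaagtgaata
Bach2, chr4:32417185-32417434, plus strand, inside an intron of the longer GENCODE gene: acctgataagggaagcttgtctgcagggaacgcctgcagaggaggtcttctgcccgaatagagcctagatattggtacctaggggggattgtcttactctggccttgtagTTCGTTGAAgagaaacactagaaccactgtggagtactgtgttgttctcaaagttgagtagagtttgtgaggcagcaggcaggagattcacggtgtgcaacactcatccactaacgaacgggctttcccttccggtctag
Bcl6, chr16:23988853-23989102, minus strand: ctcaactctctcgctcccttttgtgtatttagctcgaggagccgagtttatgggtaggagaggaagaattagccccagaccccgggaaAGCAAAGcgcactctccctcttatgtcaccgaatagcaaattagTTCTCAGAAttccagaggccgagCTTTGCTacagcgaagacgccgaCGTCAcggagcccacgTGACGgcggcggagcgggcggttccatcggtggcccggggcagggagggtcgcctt

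The Lef1 stretch, which lies in an exon of the antisense gene Gm43352, held no match. The Bach2 stretch held 1 BCL6/STAT match, which began 140 bases before the start. The Bcl6 stretch held 2 matches to TGACG (beginning 72 and 56 bases before the start), 2 to the TCF/LEF motif (162 and 95 bases before it) and 1 to the BCL6/STAT motif (118 bases before it). RefSeq promoters were found for 8 of the 10 genes, 19 in all, each running from 250 bases before to 50 bases after a start. Several of them overlap one another, so they are not independent. In 9 of the 19 the upstream stretch shares bases with exons of its own gene, 3 of them (all of Satb1) over their whole length, and the first Tcf7 stretch appears to hold coding sequence of a longer TCF1 form. TGACG was present in 2 of the 19 (10.5%) against 20.8% of all 32851 promoters of that length, and the whole cAMP element in 0 of 19 against 1.79%. The TCF/LEF motif was present in 6 of 19 (31.6%, with 2 overlapping Satb1 windows sharing 1 match) against 18.6%, the BCL6/STAT motif in 3 (15.8%) against 8.30%, the FOXO motif in 2 (10.5%) against 3.65% and the ZEB motif in 5 (26.3%) against 20.2%. These shares describe letters in these windows only. Promoters of Zeb1 and Ets1 were not matched.

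The libraries held 22678254 to 42950763 counts on genes, with a median of 30211840.5. Replicates differed by more than counting error (chi-square per degree of freedom between 8.02 and 53.1). The cells showed the markers of CD8+ T cells. All 10 of a CD8 list (Cd3d, Cd3e, Cd3g, Cd8a, Cd8b1, Trac, Cd2, Cd5, Thy1 and Lck) lay above 1 CPM (counts scaled to library size) in every group. Of 4 CD4 T cell markers, Cd4 had a group mean of 0.629 CPM at most. The others were higher, with largest group means of 27.3 (Zbtb7b), 5.93 (Foxp3) and 2.91 CPM (Cd40lg). The CD4 list summed to 40.6 CPM at most, in an unstimulated sample with PGE2. The summed CD8 list was lower with PGE2, at 4018 to 4461 CPM against 4913 to 5733 in unstimulated cells and at 4633 to 4823 against 5220 to 5630 in stimulated cells. Its members differed. In stimulated cells Cd8a, Cd8b1, Thy1, Cd5 and Lck had means of 1151, 550, 1522, 210 and 534 CPM without and 855, 461, 1222, 190 and 489 with PGE2. Cd3d, Cd3e, Cd3g, Trac and Cd2 had means of 336, 225, 258, 405 and 288 CPM without and 343, 236, 258, 405 and 299 with it. The 6 B cell markers summed to 10.1 to 21.1 CPM in unstimulated and at most 12.1 CPM in stimulated samples, with Cd79b the main one in most samples. Myeloid markers summed to 7.05 CPM at most, erythroid markers to 0.821 CPM and NK markers to 0.676 CPM. In such bulk samples fewer cells of a type and less RNA per cell cannot be told apart, and the part of these shifts in the results below was not tested.

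All 10 genes were expressed in every sample, with 124 counts (Bcl6 in a stimulated sample with PGE2) as the lowest value. On the per-length scale (FPKM, fragments scaled to transcript length and library size), Tcf7 was the highest of 1469 genes that the deposited table assigns to a transcription factor family in both unstimulated groups. Its FPKM was 426 ± 87.8 (SD, n = 4) in untreated and 436 ± 100 in PGE2-treated unstimulated cells. It took place 15 of these genes in stimulated untreated cells (112 ± 4.73) and place 12 in stimulated cells with PGE2 (147 ± 19.7). Ets1 followed with 115 ± 12.4 FPKM in unstimulated untreated cells (place 6) and 56.0 ± 2.80 FPKM in stimulated untreated cells (place 40). Satb1, Lef1, Foxo1, Foxp1 and Bach2 lay between 13.0 and 25.2 FPKM in unstimulated untreated cells, Myb and Zeb1 at 9.30 ± 1.35 and 7.03 ± 0.405 FPKM, and Bcl6 at 2.09 ± 0.275 FPKM. Both HMG-box genes kept a near constant proportion in unstimulated cells, Tcf7 FPKM being 19.0 ± 0.680 times Lef1 FPKM without and 19.4 ± 0.501 times with PGE2. This ratio was 15.4 ± 0.712 in stimulated untreated cells and 18.3 ± 2.10 in stimulated cells with PGE2.

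**Figure D1:**
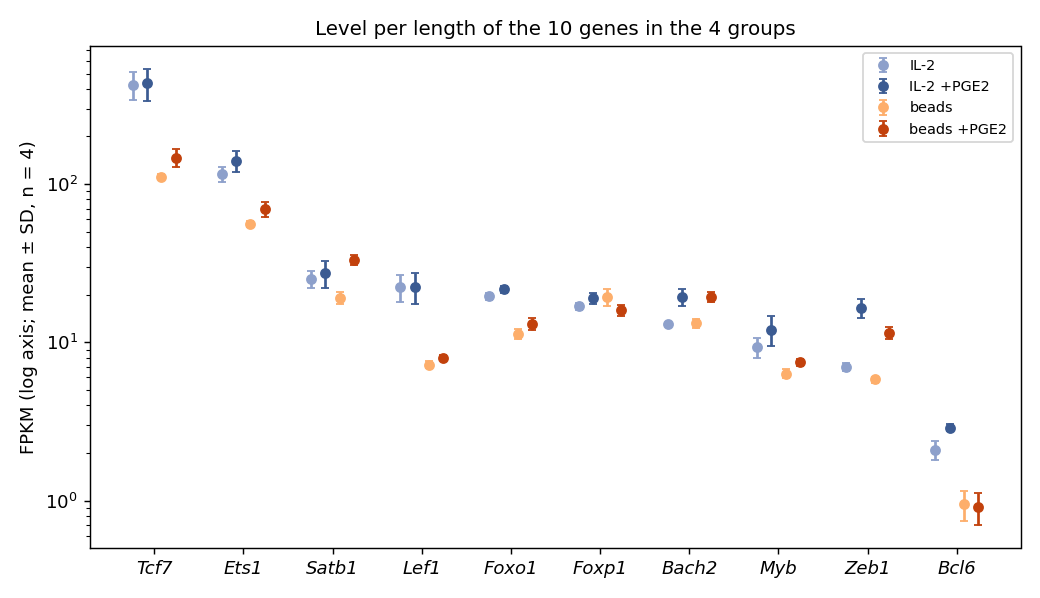
Level per length of the 10 genes in FPKM (vertical log axis), as mean ± SD of 4 samples in each group, ordered by the level in unstimulated untreated cells. Tcf7 was highest in all 4 groups, from 112 to 436 FPKM, and Bcl6 lowest.

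The unstimulated replicates did not lie close together, and their order was shared between genes. Tcf7 stood at 1479, 1214, 1094 and 913 CPM in untreated replicates 1 to 4 and at 1539.8, 1243, 1049 and 916 CPM in the PGE2-treated replicates of the same numbers. Replicate 1 was thus highest and replicate 4 lowest in both groups, and the same held for Lef1, Foxo1, Satb1 and Ets1. The coefficient of variation was 20.2% for Tcf7 and 18.9% for Lef1 in unstimulated untreated cells, against 5.37% and 3.64% in stimulated untreated cells. The summed level of 20 activation genes (among them Cd69, Il2ra, Gzmb, Nr4a1, Irf4 and Myc) ran the other way, at 1729.9, 2106, 2194 and 3241 CPM in the untreated and 1485, 1664, 1909 and 2675 CPM in the PGE2-treated unstimulated replicates. In both groups each step up in that sum went with a step down in Tcf7, Lef1, Foxo1, Satb1 and Ets1. The library with the lowest sum in the untreated group was also the shallowest of the 16, with 22678254 counts. These orders were looked up after the values had been seen, and the part of activation, depth or source in them was not tested.

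**Figure D2:**
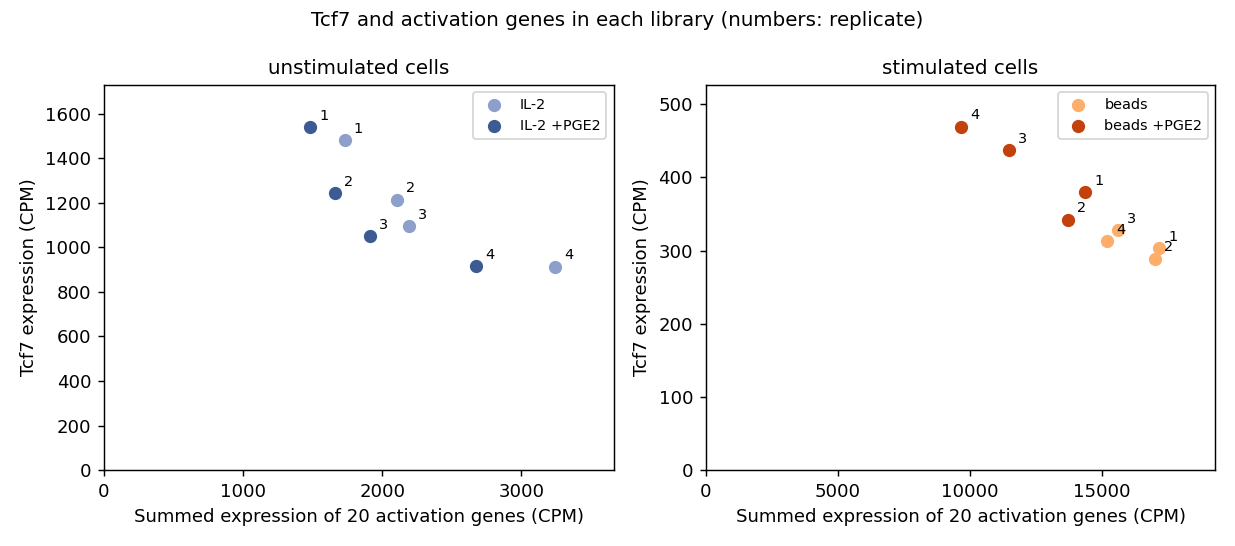
Tcf7 expression (CPM, vertical) against the summed expression of 20 activation genes (CPM, horizontal) in each sample, with unstimulated cells on the left and stimulated cells on the right and the replicate number beside each point. In both unstimulated groups Tcf7 was highest in replicate 1, where the sum was lowest, and lowest in replicate 4, where it was highest.

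The first comparison addressed what bead stimulation does to these genes in cells without PGE2. Tcf7, Lef1, Foxo1, Myb, Bcl6, Satb1, Zeb1 and Ets1 fell, Bach2 and Foxp1 did not pass the test, and none rose. With 4 samples per group, 8 of the 10 genes passed an adjusted p of 0.05 (edgeR quasi-likelihood test, Benjamini-Hochberg over all genes) in the downward and 0 in the upward direction. Of all 14205 genes tested, 34.8% passed downward and 31.7% upward. Tcf7, Lef1, Bcl6 and Ets1 also fell by at least 2-fold, which together with the adjusted p defined a differentially expressed gene (DEG), whereas 11.7% of all genes were DEGs downward and 11.5% upward. The median log2 fold change of the 10 genes was -0.68, against -0.03 over all genes.

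Tcf7 fell most. Stimulated untreated samples held 304, 289, 328 and 313 CPM, far below the 913 to 1479 CPM of the unstimulated samples. The fall was 3.84-fold (log2 -1.94 ± 0.12 SE, adjusted p = 5.69e-08). Lef1 went from 249, 223, 194 and 159 CPM to 69.4, 64.5, 68.7 and 65.3 CPM, a 3.11-fold fall (log2 -1.64 ± 0.12, adjusted p = 1.24e-07). The groups did not overlap for either HMG-box gene. The share of all genes whose groups separate is not given, here or below, so separation is not read as particular to these genes.

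Ets1 stood at 1158, 1059.6, 984 and 908 CPM in unstimulated and 498, 481, 479 and 540.1 CPM in stimulated cells. It fell 2.08-fold (log2 -1.05 ± 0.08, adjusted p = 2.96e-07), and without unstimulated untreated replicate 1 its log2 fold change was -0.997, just short of 2-fold. Bcl6 was low throughout, at 17.2, 15.1, 13.6 and 13.1 CPM before and 8.34, 6.98, 5.78 and 5.58 CPM after stimulation. Its fall was 2.21-fold (log2 -1.14 ± 0.15, adjusted p = 2.03e-05). On the log2(FPKM + 1) scale, which understates changes of low genes, Bcl6 was at -0.67.

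Foxo1 fell 1.74-fold, from 178 ± 8.89 to 103 ± 9.20 CPM (adjusted p = 7.82e-07). Myb fell 1.48-fold, from 87.4 ± 12.3 to 59.5 ± 3.04 CPM (adjusted p = 0.000143). Satb1 fell 1.33-fold, from 504 ± 60.7 to 384 ± 41.0 CPM (adjusted p = 0.00194), and Zeb1 1.22-fold, from 75.9 ± 4.35 to 63.0 ± 4.04 CPM (adjusted p = 0.00288). In each of these 4 genes every stimulated sample lay below every unstimulated one. Differences were common in this comparison, since 9822 of 14205 genes had an unadjusted p below 0.05 (edgeR).

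Bach2 and Foxp1 behaved differently. Bach2 stood at 136, 135, 135 and 138 CPM in unstimulated and 146, 137, 128 and 139 CPM in stimulated cells, with a log2 fold change of 0.00 (0.0033) and an interval of ±2 SE from -0.13 to 0.14. Foxp1 stood at 245 ± 12.3 and 279 ± 27.3 CPM (log2 0.18 ± 0.09, adjusted p = 0.0790). The Foxp1 groups overlapped. With the replicate number as a block, where 34.8% of all genes passed upward and 37.5% downward, its adjusted p was 0.0218, and it was 0.0484 and 0.0271 without stimulated untreated replicate 3 or 4.

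**Figure D3:**
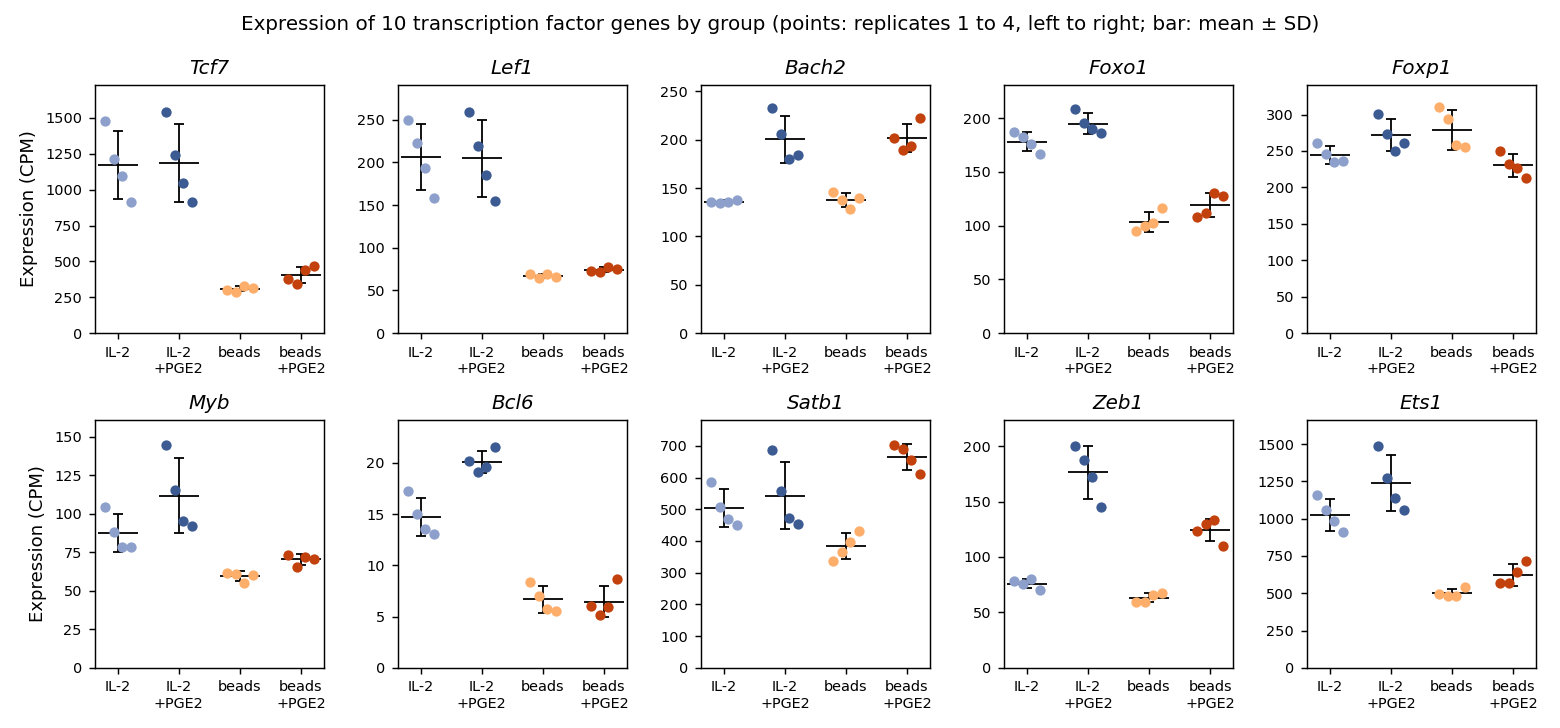
Expression of each of the 10 genes in CPM (vertical axis from 0), with 1 point per sample in the order of replicates 1 to 4 and a bar for the mean ± SD of each group. The groups are IL-2 alone, IL-2 with PGE2, beads, and beads with PGE2. Tcf7, Lef1 and Ets1 were lower in all stimulated than in all unstimulated samples, and Zeb1 was higher with PGE2 in both states.

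With PGE2 present, stimulation lowered most of the same genes. Tcf7, Lef1, Foxo1, Foxp1, Myb, Bcl6, Zeb1 and Ets1 passed downward (8 of 10), Satb1 passed upward, and Bach2 passed in neither direction. Of 14507 genes tested, 31.7% passed downward and 32.5% upward. Tcf7, Lef1 and Bcl6 were DEGs, against 9.44% of all genes downward and 12.7% upward. The median log2 fold change of the 10 genes was -0.67, against 0.00 (0.0022) over all genes. The stimulation comparisons share no sample with each other, but each shares a group with each PGE2 comparison below. With upper-quartile in place of TMM scaling the median of all genes moved to -0.13 in each, and the DEGs with PGE2 split into 1560 higher and 1758 lower in place of 1841 and 1369. On the log2(FPKM + 1) scale they split into 1087 and 496 with PGE2 and 1032 and 573 without, where the counts gave 1640 and 1661. The falls of at least 2-fold are far larger than that shift.

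Tcf7 fell 2.88-fold, from 1540, 1243, 1049 and 916 CPM to 379, 342, 437 and 469 CPM (log2 -1.53 ± 0.15, adjusted p = 7.69e-06). Lef1 fell 2.72-fold, from 260, 219, 185 and 155 CPM to 73.2, 71.1, 78.0 and 74.8 CPM (log2 -1.45 ± 0.13, adjusted p = 4.76e-06). Neither pair of groups overlapped. Bcl6 fell 3.10-fold, from 20.1, 19.1, 19.6 and 21.6 CPM to 6.05, 5.19, 5.91 and 8.63 CPM (log2 -1.63 ± 0.14, adjusted p = 3.97e-06). Ets1 fell 1.97-fold, from 1239 ± 189 to 624 ± 72.9 CPM (log2 -0.97 ± 0.11, adjusted p = 1.78e-05). It passed 2-fold without unstimulated PGE2 replicate 3 or 4 (log2 -1.06 and -1.04) or without stimulated PGE2 replicate 3 or 4 (-1.03 and -1.03). Ets1 also passed 2-fold with upper-quartile scaling, without a filter on low counts or with at least 10 counts in every sample. The same held on the log2(FPKM + 0.1) scale, so its place at 2-fold depends on samples and processing.

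Foxo1 fell 1.62-fold (log2 -0.70 ± 0.07, adjusted p = 1.38e-05), Myb 1.57-fold (log2 -0.65 ± 0.12, adjusted p = 0.000801) and Zeb1 1.40-fold (log2 -0.49 ± 0.10, adjusted p = 0.00152). Foxp1 went from 271 ± 21.9 to 231 ± 15.6 CPM (log2 -0.22 ± 0.08, adjusted p = 0.0317), but its groups overlapped slightly. Its adjusted p was 0.0861 without stimulated PGE2 replicate 4 and 0.0709 without unstimulated PGE2 replicate 2. Satb1 stood at 686, 558, 473 and 454 CPM in unstimulated and 703, 690.3, 657 and 612 CPM in stimulated cells with PGE2. These groups overlapped in 1 high unstimulated sample, and the log2 fold change was 0.31 ± 0.12 (adjusted p = 0.0348). Leaving out stimulated PGE2 replicates 1, 2 or 3 gave an adjusted p of 0.0742, 0.127 and 0.0961, and leaving out unstimulated PGE2 replicates 2, 3 or 4 gave 0.0620, 0.182 and 0.0957. With DESeq2 it was 0.0520, so the rise of Satb1 depends on the samples and the tool. Bach2 again moved little (log2 0.03, interval of ±2 SE from -0.15 to 0.20).

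**Figure D4:**
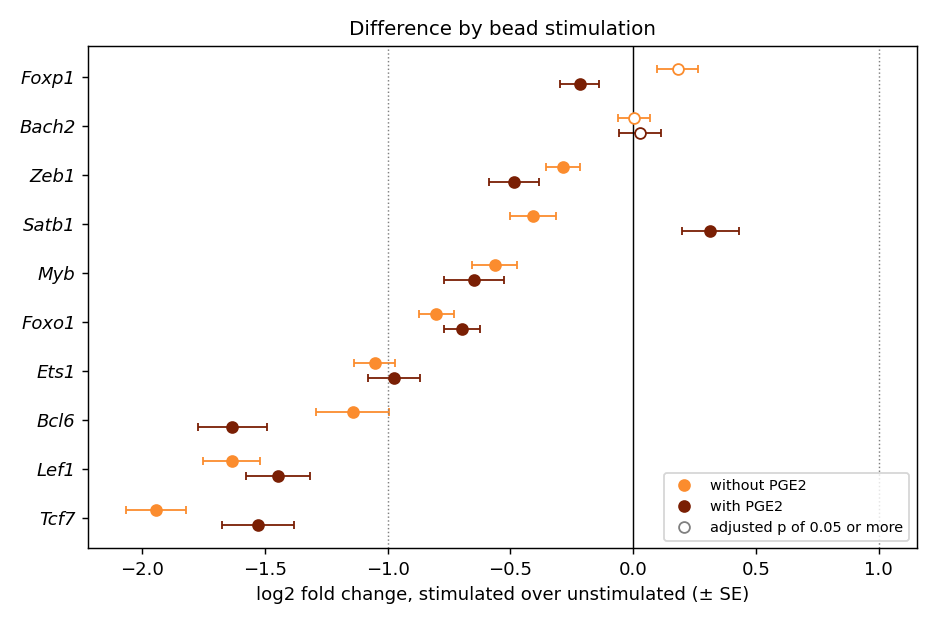
Log2 fold change of stimulated over unstimulated cells (horizontal axis, ± SE) for each gene, without PGE2 in light and with PGE2 in dark colour. Open symbols did not pass an adjusted p of 0.05 and dotted lines mark 2-fold. Tcf7, Lef1 and Bcl6 lay below -1 in both comparisons, Bach2 near 0 in both, and Satb1 on opposite sides of 0.

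PGE2 exposure of stimulated cells was compared next, which asks how the mediator alters these genes during activation. Zeb1, Satb1, Bach2, Tcf7, Ets1 and Myb rose, by 1.98-fold to 1.19-fold, and none fell. These were 6 of the 10 genes past an adjusted p of 0.05 upward and 0 downward, where 6.04% of 13922 genes passed upward and 3.80% downward. None of the 10 was a DEG, against 1.20% of all genes upward and 0.546% downward. The median log2 fold change of the 10 genes was 0.29, against -0.01 over all genes.

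Zeb1 had the largest difference. Its samples stood at 59.3, 59.8, 65.7 and 67.2 CPM without and 124, 129.6, 134 and 110.1 CPM with PGE2, with a wide gap between the groups. The rise was 1.98-fold (log2 0.99 ± 0.08, adjusted p = 0.000146). It exceeded 2-fold by a small margin without untreated replicate 3 or 4 (log2 1.01 and 1.02) or without PGE2 replicate 4 (1.04).

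Satb1 stood at 337, 366, 398 and 433 CPM without and 703, 690.3, 657 and 612 CPM with PGE2. The groups were far apart, and the rise was 1.74-fold (log2 0.80 ± 0.09, adjusted p = 0.000774). Bach2 stood at 146, 137, 128 and 139 CPM without and 202, 189, 194 and 223 CPM with PGE2, again without overlap, a 1.48-fold rise (log2 0.56 ± 0.07, adjusted p = 0.00134). Zeb1, Satb1 and Bach2 passed under all 18 alternative settings.

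Tcf7 stood at 304, 289, 328 and 313 CPM without and 379, 342, 437 and 469 CPM with PGE2. All 4 treated samples lay above all untreated ones, and the rise was 1.33-fold (log2 0.41 ± 0.10, adjusted p = 0.0317). It left Tcf7 far below the unstimulated level. Ets1 rose 1.25-fold, from 500 ± 28.2 to 624 ± 72.9 CPM (log2 0.33 ± 0.09, adjusted p = 0.0452), and Myb 1.19-fold, from 59.5 ± 3.04 to 70.4 ± 3.43 CPM (log2 0.25 ± 0.06, adjusted p = 0.0358), both without overlap. The summed activation list was also lower in these treated samples, at 9655 to 14363 CPM against 15204 to 17166 CPM, with PGE2 replicates 3 and 4 lowest in the sum and highest in Tcf7 and Ets1. Satb1 ran the other way in these 4 samples, rising with the sum at every step, as Foxp1 did in both stimulated groups. The part of this in the PGE2 differences was not tested.

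With the replicate number as a block the calls of these last 3 genes held. In that fit 19.1% of all genes passed upward and 20.7% downward. Without the block these calls were fragile. In 1 fit of all 16 samples the adjusted p was 0.0844 for Tcf7, 0.188 for Myb and 0.0502 for Ets1, and Ets1 also missed the threshold with RLE (0.0513) and upper-quartile scaling (0.0551). Without untreated replicates 1, 2, 3 or 4 the adjusted p of Tcf7 was 0.0713, 0.102, 0.0555 and 0.0539, and without PGE2 replicate 3 or 4 it was 0.0969 and 0.0685. Ets1 had 0.0883, 0.128 and 0.113 without untreated replicates 1, 2 or 3, and 0.0505, 0.125 and 0.0990 without PGE2 replicates 2, 3 or 4. Myb had 0.0643, 0.0868, 0.0999 and 0.0556 without untreated replicates 1 to 4, and 0.0657, 0.107 and 0.0742 without PGE2 replicates 1, 3 or 4. The count of genes past the threshold was accordingly 3 to 5 with 1 sample left out.

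Lef1, Foxo1, Foxp1 and Bcl6 did not pass. Lef1 stood at 67.0 ± 2.44 and 74.2 ± 2.91 CPM (log2 0.16 ± 0.06, adjusted p = 0.116), Foxo1 at 103 ± 9.20 and 119 ± 11.2 CPM (log2 0.21 ± 0.09, adjusted p = 0.158), and Foxp1 at 279 ± 27.3 and 231 ± 15.6 CPM (log2 -0.27 ± 0.08, adjusted p = 0.0660). Foxp1 was the member with its groups apart in the downward direction. With the replicate number as a block, Lef1 (adjusted p = 0.0110), Foxo1 (0.00353) and Foxp1 (0.000774) passed as well, which made 8 of the 10 genes higher and Foxp1 lower. Under the block the share of all genes that passed also rose, to 19.1% upward and 20.7% downward, and the DEGs over all genes from 243 to 349. Foxp1 also passed with DESeq2 (0.0377). Bcl6 stood at 8.34, 6.98, 5.78 and 5.58 CPM without and 6.05, 5.19, 5.91 and 8.63 CPM with PGE2, with an interval of ±2 SE from -0.42 to 0.32, so changes within about that range were not excluded.

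In unstimulated cells PGE2 raised Zeb1, Bach2 and Bcl6, and 7 of the 10 genes did not pass. Of 14505 genes tested, 12.9% passed upward and 15.5% downward, against 3 and 0 of the 10. Zeb1 was the DEG among them, where 1.45% of all genes were DEGs upward and 1.92% downward. The DEGs over all genes split into 211 higher and 279 lower, and into 36 and 80 on the log2(FPKM + 1) scale or 75 and 162 on the log2(FPKM + 0.1) scale. The median log2 fold change of the 10 genes was 0.23, against 0.00 (-0.0010) over all genes.

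Zeb1 stood at 78.1, 75.5, 80.0 and 70.0 CPM without and 200.2, 187, 172 and 145 CPM with PGE2. The lowest treated sample was far above the highest untreated one, and the rise was 2.35-fold (log2 1.23 ± 0.09, adjusted p = 5.41e-06). Bach2 varied little without PGE2 (135 to 138 CPM) and stood at 232, 206, 179.7 and 184 CPM with it, a 1.49-fold rise (log2 0.58 ± 0.07, adjusted p = 0.00013). Bcl6 rose 1.39-fold, from 17.2, 15.1, 13.6 and 13.1 CPM to 20.1, 19.1, 19.6 and 21.6 CPM (log2 0.47 ± 0.09, adjusted p = 0.00298). In none of the 3 genes did the groups overlap, though the share of all genes for which this held is not given.

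Tcf7 and Lef1 showed no detectable difference. Tcf7 stood at 1175 ± 238 and 1187 ± 271 CPM (log2 0.03 ± 0.16, interval of ±2 SE from -0.29 to 0.35), and Lef1 at 206 ± 38.9 and 205 ± 45.0 CPM (log2 0.01 ± 0.15, interval from -0.30 to 0.32). Their replicates of 1 group differed more than the groups did, and these intervals come from the fit without the block. Same-numbered untreated and PGE2 samples lay close together. Tcf7 stood at 1479 and 1540, 1214 and 1243, 1094 and 1049, and 913 and 916 CPM, and Lef1 at 249 and 260, 223 and 219, 194 and 185, and 159 and 155 CPM. The other 5 genes were higher on average but overlapped. Myb (log2 0.37 ± 0.13, adjusted p = 0.0527), Ets1 (0.29 ± 0.10, 0.0520), Foxp1 (0.17 ± 0.06, 0.0580) and Foxo1 (0.15 ± 0.05, 0.0620) just missed the threshold, and Satb1 was at 0.12 ± 0.12 (adjusted p = 0.483).

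The replicates with the same number deviated together between these groups, and a fit with that number as a block gave Myb an adjusted p of 1.02e-06, Ets1 1.12e-05, Foxp1 0.000724, Foxo1 0.00163 and Satb1 0.0254, so that 8 of 10 genes passed upward. Under the block 23.6% of all genes passed upward and 24.2% downward, and the DEGs over all genes went from 490 to 560. Tcf7 and Lef1 did not pass with the block either. Without untreated replicate 1, Myb (0.0247), Ets1 (0.0332) and Foxp1 (0.0449) passed in the unblocked fit. Without PGE2 replicate 4, Myb (0.0230) and Ets1 (0.0206) passed, and without PGE2 replicate 3, Myb (0.0468) did. Without PGE2 replicate 1, in contrast, the log2 fold changes of Myb and Ets1 were 0.24 and 0.20 (adjusted p = 0.116 and 0.117) and that of Satb1 0.0087, and none of these passed.

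**Figure D5:**
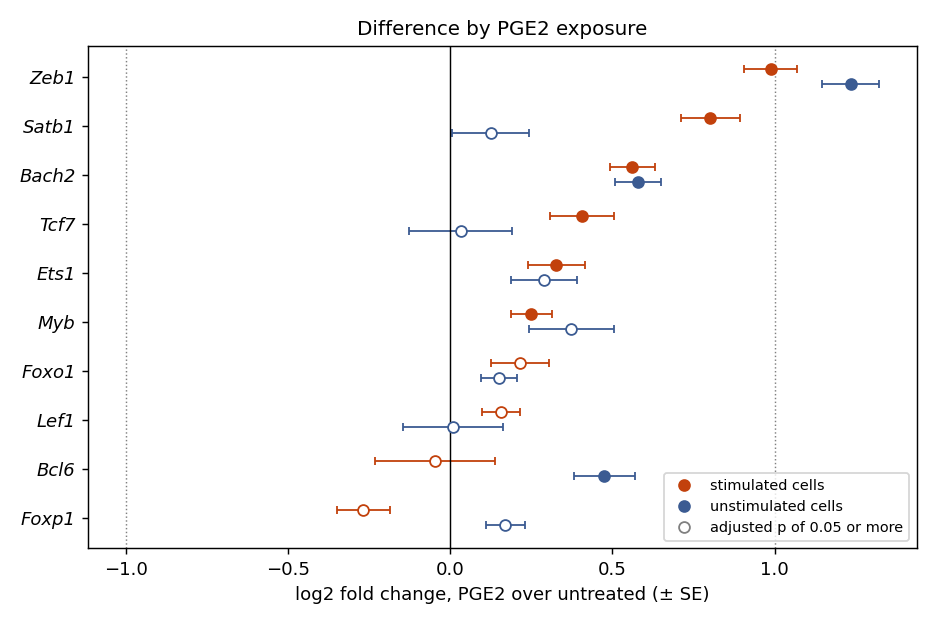
Log2 fold change of PGE2-treated over untreated cells (horizontal axis, ± SE) for each gene, in stimulated and in unstimulated cells. Open symbols did not pass an adjusted p of 0.05 and dotted lines mark 2-fold. Zeb1 and Bach2 rose in both states, and Tcf7, Satb1, Ets1 and Myb passed in stimulated cells, Bcl6 in unstimulated cells.

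Whether the PGE2 difference depended on stimulation was tested as an interaction in a fit of all 16 samples. None of the 10 genes passed an adjusted p of 0.05 with edgeR at the settings used throughout, although 1415 of 15096 genes had an unadjusted p below 0.05 and 0.517% passed upward and 0.232% downward. With a difference of at least 2-fold added, 0.152% of all genes passed upward and 0.0795% downward. These 23 higher and 12 lower genes were 15 and 12 with RLE scaling, 2 and 6 on the log2(FPKM + 1) scale and 8 and 9 on the log2(FPKM + 0.1) scale. Tcf7 passed in 1 of the 2 PGE2 comparisons, but a difference between states was not established (interaction 0.39 ± 0.21 on the log2 scale, adjusted p = 0.651), and neither was that of Bcl6 (-0.51 ± 0.21, adjusted p = 0.420).

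Satb1 came closest. Its interaction was 0.69 ± 0.17 (adjusted p = 0.0677), the PGE2 difference being larger in stimulated cells. Foxp1 had the opposite sign, -0.43 ± 0.11 (adjusted p = 0.0989), since it was lower with PGE2 in stimulated cells and higher on average in unstimulated cells. With DESeq2 both passed (adjusted p = 0.0104 for Satb1 and 0.0457 for Foxp1). Both also passed in edgeR with upper-quartile scaling (0.0424 and 0.0236), and Satb1 without a filter on low counts (0.0243) or with at least 10 counts in all samples (0.0477). Satb1 also passed with edgeR without stimulated PGE2 replicate 4 (0.0487) or unstimulated PGE2 replicate 1 (0.0142). For Bach2 the interaction was -0.01 with an interval of ±2 SE from -0.23 to 0.21.

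Paralogues of the 10 genes were counted from a list of 23, of which 18 passed the filter on low counts. Stimulation without PGE2 raised 5 and lowered 8 of them, where 31.7% of all genes passed upward and 34.8% downward. Zeb2, the relative of Zeb1 that is linked to effector cells, rose from 1.53 ± 0.852 to 31.6 ± 7.61 CPM (log2 4.32 ± 0.29, adjusted p = 8.79e-08) while Zeb1 fell. Fli1, like Ets1 an ETS factor, fell from 138 ± 15.9 to 44.0 ± 2.20 CPM (log2 -1.66). Foxp4 rose from 72.5 ± 4.25 to 212 ± 21.8 CPM (log2 1.53). With PGE2 present, 5 rose and 10 fell (32.5% and 31.7% of all genes), again with Zeb2 highest (log2 3.53 ± 0.35, adjusted p = 8.99e-06). With PGE2 few of the 18 paralogues passed, as did few of all genes (6.04% upward and 3.80% downward in stimulated cells, 12.9% and 15.5% in unstimulated cells), and nothing is read from these counts. Foxp4 was the 1 of 18 that fell in stimulated cells (log2 -0.34, adjusted p = 0.0490), and in unstimulated cells Foxp4 fell (-0.18, 0.0360) and Ets2 rose (0.24, 0.0125). None of the 18 passed the interaction test, where 0.517% of all genes passed upward and 0.232% downward.

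Of 30 cofactor genes of these factors, 29 were tested in stimulated cells and 3 rose with PGE2, none falling, a count too small to set against the 6.04% and 3.80% of all genes. They were the acetyltransferase genes Ep300 (67.6 ± 5.80 to 86.8 ± 3.72 CPM, log2 0.37, adjusted p = 0.0148) and Crebbp (log2 0.28, 0.0263), and Pygo2 of the beta-catenin complex (log2 0.29, 0.0491). In unstimulated cells 6 of 28 rose, led by Tle2, Bcl9 and Tcf12, and 3 fell, namely Hdac2, Mafk and Tcf3. Of all genes 12.9% rose and 15.5% fell there. Stimulation without PGE2 raised 11 of 29 and lowered 13, where 31.7% of all genes rose and 34.8% fell, and nothing is read from these counts. Mafk and Mafg, small MAF partners of BACH proteins, rose (log2 1.87 and 1.35), whereas Bcl9l, the corepressor gene Tle4 and Ep300 fell (log2 -1.51, -1.19 and -1.04). With PGE2 stimulation raised 10 and lowered 13 (32.5% and 31.7% of all genes), with Mafk (1.95) and Mafg (1.43) again among the rises. None of 29 passed the interaction test (0.517% of all genes upward and 0.232% downward).

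Known target and companion genes (32, all tested) went in both directions with PGE2. In stimulated cells 10 rose and 4 fell, with a median log2 fold change of 0.11, where 6.04% of all genes rose and 3.80% fell. Ccr7, a homing receptor of naive and memory T cells, rose from 467 ± 105 to 1237 ± 254 CPM (log2 1.41 ± 0.18, adjusted p = 0.00153), S1pr1, which guides exit from lymphoid organs, from a mean of 29.2 to 61.9 CPM (1.09 ± 0.11, 0.00036) and Nt5e, encoding CD73, from 9.92 ± 2.66 to 24.3 ± 5.49 CPM (1.30 ± 0.21, 0.00415). Igfbp4 fell from 117 ± 14.3 to 25.2 ± 4.13 CPM (-2.21 ± 0.13, 4.43e-05), Id3, an inhibitor of E proteins that marks stem-like cells, from 74.7 ± 14.7 to 28.8 ± 2.94 CPM (-1.37 ± 0.13, 0.000324) and Il6ra from 10.4 ± 2.92 to 4.44 ± 1.09 CPM (-1.22 ± 0.23, 0.00918). Genes that mark the stem-like or naive state thus lay on both sides. In unstimulated cells 7 rose and 8 fell (median -0.05), where 12.9% of all genes rose and 15.5% fell. Those that passed included Nt5e (0.77) and Ccr7 (0.63) upward and Igfbp4 (-2.19), Il6ra (-1.27) and Eomes (-1.13) downward.

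Stimulation without PGE2 lowered 20 of these 32 genes and raised 10 (median log2 fold change -1.14), and with PGE2 it lowered 18 and raised 8 (median -0.65). Of all genes 34.8% fell and 31.7% rose without PGE2, and 31.7% fell and 32.5% rose with it. S1pr1 fell from a mean of 249.7 to 29.2 CPM without PGE2 (log2 -3.10 ± 0.19, adjusted p = 4.75e-08). Pik3ip1 and Klf2, a FOXO1 target, fell by 2.96 and 2.63 on the log2 scale. Xcl1, Myc and Eomes rose (log2 5.85, 3.10 and 2.97). With PGE2 the falls were led by S1pr1 (-2.28), Pik3ip1 (-2.22) and Klf3 (-1.96) and the rises by Xcl1 (5.42), Myc (3.86) and Eomes (3.33). Klf2 was the 1 gene of this list to pass the interaction test (0.83 ± 0.18, adjusted p = 0.0391).

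Factors that oppose the stem-like state or drive effector and exhausted states were counted from a list of 22. Stimulation without PGE2 raised 14 of 20 tested and lowered 4, and with PGE2 13 of 21 and 5. Of all genes 31.7% rose and 34.8% fell without PGE2, and 32.5% rose and 31.7% fell with it. The largest rises without PGE2 were Zeb2, Nr4a1 (log2 3.91) and Nr4a3 (3.46), and with PGE2 Irf4 (4.18), Nr4a1 (3.68) and Zbtb32 (3.57). With PGE2 in stimulated cells 3 of 20 rose and 5 fell, against 6.04% and 3.80% of all genes. Ikzf2 (52.1 ± 10.4 to 164 ± 32.5 CPM, log2 1.66 ± 0.16), Hif1a (0.90) and Stat4 (0.80) rose. Batf (54.9 ± 8.12 to 30.5 ± 2.72 CPM, -0.84 ± 0.11), Batf3 (-0.77) and Prdm1 (10.5 ± 2.19 to 6.24 ± 0.402 CPM, -0.74 ± 0.16, adjusted p = 0.0198) fell, while Bcl6, the antagonist of Prdm1, did not pass. In unstimulated cells 3 of 21 rose (Ikzf2, Hif1a and Stat4) and 4 fell, led by Batf3 (-1.44), Zbtb32 (-0.83) and Ikzf3 (-0.53). Of all genes 12.9% rose and 15.5% fell there, so these counts are not read as a result. Batf passed the interaction test downward (-0.67 ± 0.15, adjusted p = 0.0415).

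The list of 20 activation genes describes the response to the stimulus. It is no independent check, since it was chosen with earlier results of these data known. It also shares Nr4a1 and Irf4 with the list of opposing factors and Myc with the target list. All 20 rose with stimulation without PGE2 and 19 with it (31.7% and 32.5% of all genes), led by Ifng and Il2. With PGE2 in stimulated cells 7 fell and 1 rose (3.80% and 6.04% of all genes), Il2 going from 101 ± 47.3 to 26.0 ± 16.6 CPM (log2 -1.95 ± 0.47, adjusted p = 0.0305). In unstimulated cells 9 fell and 2, Pdcd1 and Tnfrsf9, rose (15.5% and 12.9% of all genes). Pdcd1 passed the interaction test downward (-1.75 ± 0.36, adjusted p = 0.0316).

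The members fell into several patterns over the 16 samples. Likeness was measured as the root-mean-square distance between log2 CPM values centred for each gene, and it describes levels only. Among the members, Tcf7 and Lef1 were closest (0.154), followed by Foxo1 with Ets1 (0.167) and Foxo1 with Myb (0.182). Tcf7 and Bach2 were farthest apart (0.906), Bach2 being nearest to Satb1 (0.238). The genes nearest to Tcf7 of 12253 compared were AI467606 (0.0794), Fam189b (0.0863) and Narf (0.101). Nearest to Lef1 were Arhgap45 (0.0980), Orai2 (0.103) and Il17ra (0.111). Nearest to Ets1 were Numa1 (0.0712), Zfyve1 (0.0729) and the cofactor gene Ep300 (0.0750). Bcl6 was followed by Slamf6 (0.192), a surface marker of stem-like T cells, P2ry10b (0.200) and Idh1 (0.206).

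Zeb1 was higher with PGE2 in both states and lower with beads by less than 2-fold. Nearest to it were Pmepa1 (0.132), Bend4 (0.134) and Pja1 (0.142). Pmepa1, like Zeb1 a gene known to respond to TGF-beta, stood at 25.2 and 54.1 CPM in unstimulated cells without and with PGE2 and at 21.9 and 36.6 CPM in stimulated cells.

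The genes lie on GRCm38 at the following places, and the spans are those of the whole gene. Tcf7 (ENSMUSG00000000782) lies on chromosome 11 from 52252371 to 52283014 on the minus strand, Lef1 (ENSMUSG00000027985) on chromosome 3 from 131110471 to 131224356 on the plus strand, and Ets1 (ENSMUSG00000032035) on chromosome 9 from 32636221 to 32757820 on the plus strand. Bach2 (ENSMUSG00000040270) spans 32238804 to 32586108 on the plus strand of chromosome 4. Foxo1 (ENSMUSG00000044167) spans 52268336 to 52353221 on the plus strand of chromosome 3, and Foxp1 (ENSMUSG00000030067) 98925338 to 99522721 on the minus strand of chromosome 6. Myb (ENSMUSG00000019982) spans 21124935 to 21160984 on the minus strand of chromosome 10, Bcl6 (ENSMUSG00000022508) 23965052 to 23988852 on the minus strand of chromosome 16, and Satb1 (ENSMUSG00000023927) 51736187 to 51833290 on the minus strand of chromosome 17. Zeb1 (ENSMUSG00000024238) spans 5591860 to 5775467 on the plus strand of chromosome 18. Values are sums over the exons of each gene, so isoforms cannot be told apart.

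Some exon bases are shared with other genes, and whether the counting used strand is not stated. The antisense gene Gm43352 covers 13.7% of the exon bases of Lef1 and reached 1.01 CPM, and Bach2os covers 5.40% of those of Bach2 and reached 1.69 CPM. Antisense genes cover 7.78% of Foxo1 and 6.26% of Myb, and these reached 0.0107 and 0.153 CPM. Reads from both partners cannot be told apart there. Smaller overlaps affect Foxp1, Bcl6, Satb1 and Zeb1, and none affects Tcf7 and Ets1.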

How the data were processed

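RNA-seq of 16 samples was analysed. The authors deposited whole-number counts per gene and FPKM values derived from them. Per the labels and the submitters' processing notes, poly(A)-selected NEBNext Ultra libraries were aligned to GRCm38 with HISAT2 2.0.5 and counted with featureCounts 1.5.0-p3, and DESeq2 1.20.0 was used. Annotation release, strand setting and counting options are not given in the sources used here. Groups came from the treatment given in the labels. The 10 genes, the companion lists and the marker lists, written from general knowledge, were chosen with earlier results of these data known.

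Counts were tested with edgeR 4.0.16 in R 4.3.3 (filterByExpr at a minimum count of 10, TMM factors from 0.880 to 1.09, glmQLFit and glmQLFTest, two-sided, Benjamini-Hochberg over all genes tested). Pairwise fits held 8 samples and no covariate, and the interaction fit 16. DEGs had an adjusted p below 0.05 and at least a 2-fold difference. CPM values were counts scaled to TMM-adjusted library size, log2 CPM a prior count of 2. The steps were tested on simulated data. From each list, at most 3 rises and 3 falls past the threshold were eligible to be named in each comparison. Likeness was computed for members whose group means differed by at least 1 on log2 CPM, against genes of at least 1 CPM.

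Alternatives were DESeq2 1.42.0, scaling by RLE or by upper quartiles, testing all genes or those with 10 or more counts in each library, dropping the fold threshold, a replicate block, 1 fit of 16 samples, limma 3.58.1 with a trend on log2(FPKM + 1) or log2(FPKM + 0.1) at a mean FPKM of at least 1 or unfiltered, and leaving out each sample. Replicate numbers come from the labels, which do not say what they share. The B cell markers without Cd79b stood out in replicate 3 of every group. They summed to 6.05 and 6.53 CPM in unstimulated cells without and with PGE2. In stimulated cells they summed to 5.13 and 4.99 CPM. All other samples lay between 0.881 and 2.39 CPM, and the source of this was not tested. Deviations of same-numbered samples from their group means correlated at 0.190 to 0.423 for PGE2 in stimulated cells, 0.137 to 0.444 in unstimulated cells and 0.112 to 0.359 for stimulation without PGE2, so same-numbered samples were taken as pairs there. Calls, counts and shares nevertheless come from the fits without the block unless the block is named, and the blocked calls of the 10 genes stand beside those they change. For stimulation with PGE2 they correlated at 0.0439 to 0.281, with 2 of 4 pairs above 0.1. Depth was similar across groups, and replicate spread (biological coefficient of variation 0.115 to 0.139) limits precision more than counting error.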

Additional observations from a re-analysis of the deposited data

Results flagged for a closer look

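Of 40 sets of 4 replicates (10 genes in 4 groups), 1 held a sample far from the others by Dixon's criterion, which chance meets in about 1 of 20 sets. Myb stood at 55.0 CPM in stimulated untreated replicate 3, against 60.5 to 61.6 CPM in the other 3 replicates. Without that sample the PGE2 difference of Myb in stimulated cells was 0.22 on the log2 scale (adjusted p = 0.0999, edgeR).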

How the results depend on the processing

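Each test of a gene was repeated under 18 alternatives, or 25 for the interaction, except that Bcl6 fell below the FPKM filter for PGE2 in stimulated cells (16). Across all results 840 alternatives kept direction and call, 48 lost a call, 46 gained one and 34 changed sign. In the 4 pairwise comparisons no gene that had passed changed direction. With the replicate block, 9 of the 10 genes passed for PGE2 in stimulated, 8 in unstimulated cells and 9 for each stimulation comparison, with no call changed for stimulation with PGE2. For the interaction, where 21 of 24 pairs correlated above 0.1, the block gave 2 (Satb1, adjusted p = 0.0259, and Foxp1, 0.00240) and 60 DEGs over all genes in place of 35. With 1 sample left out, the genes past the threshold numbered 3 to 5 for PGE2 in stimulated cells, with 0 to 1 DEG, 3 to 6 in unstimulated cells, and 0 to 1 for the interaction, whose DEGs over all genes ranged from 18 to 72.

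For PGE2 in unstimulated cells, 7 genes passed with DESeq2, with at least 10 counts in every sample and with upper-quartile factors, and 5 without a filter, in place of 3. In stimulated cells upper-quartile factors made Zeb1 the 1 DEG, and log2(FPKM + 1) without a filter left 3 genes past the threshold. For the interaction, DESeq2 and upper-quartile factors gave 2 genes, and no filter or at least 10 counts in every sample gave 1. DEGs over all genes under log2(FPKM + 1), log2(FPKM + 0.1), log2(FPKM + 1) without a filter and no fold threshold numbered 62, 110, 49 and 1370 in place of 243 for PGE2 in stimulated cells, 116, 237, 113 and 4122 in place of 490 in unstimulated cells, and 8, 17, 6 and 113 for the interaction. For stimulation they numbered 1605 with log2(FPKM + 1), 1612 unfiltered and 9440 without a fold threshold in place of 3301 without PGE2, and 1583, 1604 and 9309 in place of 3210 with it. The cause was not tested.

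Signs changed only for differences that had not passed. The log2 fold change of Bach2 by stimulation without PGE2 was -0.0146 without a filter and -0.0941 with upper-quartile factors. With PGE2 it was -0.0167 with at least 10 counts in every sample, -0.0274 without a filter, -0.0972 with upper-quartile factors, -0.00548 with log2(FPKM + 1), filtered or not, and -0.00552 with log2(FPKM + 0.1). Lef1 with PGE2 in unstimulated cells was at -0.0104 in 1 fit of 16 samples. With 1 sample left out, Bach2 ranged from -0.0269 to 0.0367 for stimulation without PGE2, from -0.0651 to 0.0590 with PGE2 and from -0.0685 to 0.0623 for the interaction. Likewise Tcf7 ranged from -0.10 to 0.16 and Lef1 from -0.11 to 0.12 for PGE2 in unstimulated cells, Bcl6 from -0.216 to 0.0907 in stimulated cells, and Ets1 from -0.0352 to 0.14 and Myb from -0.21 to 0.0256 for the interaction. Depth limits Bcl6 most, with 124 to 315 counts in stimulated samples.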
